A study of Drosophila melanogaster with 9 samples.

Results

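Among 6 arrays of sorted embryonic muscle cells, 2 stood apart from the other 4, and they came from different transgenes. They are apGFP replicate 3 and S59RFP replicate 2, 2 of the 9 arrays of the series, and they are called the pair here. They were selected on the measured values themselves: over 16377 probe sets they lay away from apGFP replicates 1 and 2 and S59RFP replicates 1 and 3 along the leading axis of variation. Differences between the pair and the other 4 arrays are therefore given as descriptions, with no test, and the counts of them follow from that choice.

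All cells were isolated by fluorescence-activated sorting from dissociated Drosophila melanogaster embryos at stage 13, laid over 2 h and aged for 8 h at 25 °C. In the apGFP cells an enhancer of apterous (ap) active in muscle drove GFP, and on resorting 74% of them were positive. In the S59RFP cells a slouch (slou, also called S59) enhancer active in muscle drove RFP, with 87% positive. In the twi-actin-GFP cells the twist (twi) promoter drove actin-GFP, with 95% positive, and their 3 arrays serve here only as a reference level. Each transgene had 3 independent sorts, each labelled and hybridized by itself, and the purity is given per transgene and not per sort. In such bulk samples, fewer cells of a type and less RNA per cell cannot be told apart.

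At this stage the body wall muscles form by fusion. A founder cell, which carries the identity of 1 muscle through transcription factors such as ap, slou or the Iroquois proteins, recruits fusion-competent myoblasts through paired immunoglobulin receptors. The young muscle then attaches to tendon cells and begins to make its contractile apparatus, while dividing cells leave the cell cycle. Sorting of dissociated embryos can carry along cells of other tissues and can expose cells to handling stress, so that marker lists for other cell types and for stress genes were read beside the muscle genes.

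The pair lay on the same side of the leading component of the 6 muscle reporter arrays, which held 71.3% of their variance. S59RFP replicate 2 had a score of 0.754 and apGFP replicate 3 a score of 0.351, against -0.311 to -0.252 for the other 4 arrays. S59RFP replicate 2 was the farther of the pair. It was the highest of the 6 arrays for 34.5% of probe sets and the lowest for 29.9%, against 9.21% to 15.3% and 11.8% to 18% on the other 4 arrays. For apGFP replicate 3 these shares were 16.7% and 15%, inside or close to the range of the other 4. The values of S59RFP replicate 2 were also compressed, with a lower quartile of 3.64 and an upper quartile of 7.45 (log2), against 3.46 to 3.53 and 7.64 to 7.75 on the other 4 arrays. The quartiles of apGFP replicate 3, 3.51 and 7.69, lay within that range. With quantile normalization on top, which makes the value distributions of the 6 arrays equal, the correlation of deviations given next was 0.675, and the probe sets counted as differing were 398 higher and 359 lower. The array weights that limma estimates from the residual spread were 0.41 for apGFP replicate 3 and 0.11 for S59RFP replicate 2, and 0.96 to 5.90 for the other 4 arrays.

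Each array of the pair was set against its own transgene, so that the 2 deviations share no array. The deviation of apGFP replicate 3 from the mean of apGFP replicates 1 and 2 and that of S59RFP replicate 2 from the mean of S59RFP replicates 1 and 3 had a correlation of 0.668 across 16377 probe sets, which are not independent of each other and come from 1 array platform. Their signs matched for 63.0% of probe sets. Among the 307 probe sets that were higher by at least 1 (log2) on apGFP replicate 3, 293 were also higher on S59RFP replicate 2, with median deviations of 1.36 and 1.35. Among the 261 that were lower by at least 1 on apGFP replicate 3, 246 were also lower on S59RFP replicate 2, with medians of -1.35 and -1.52. Chosen the other way round, on S59RFP replicate 2, 479 of 520 higher and 851 of 933 lower probe sets kept their sign on apGFP replicate 3, with smaller medians there of 0.856 and -0.543. Most probe sets that departed on apGFP replicate 3 thus departed the same way on S59RFP replicate 2, which held further departures that were smaller on apGFP replicate 3. The pair was chosen on these same values for lying on 1 side of their leading axis. A positive correlation and shared signs follow from that choice, so they describe the pair and are no support for it.

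**Figure D1:**
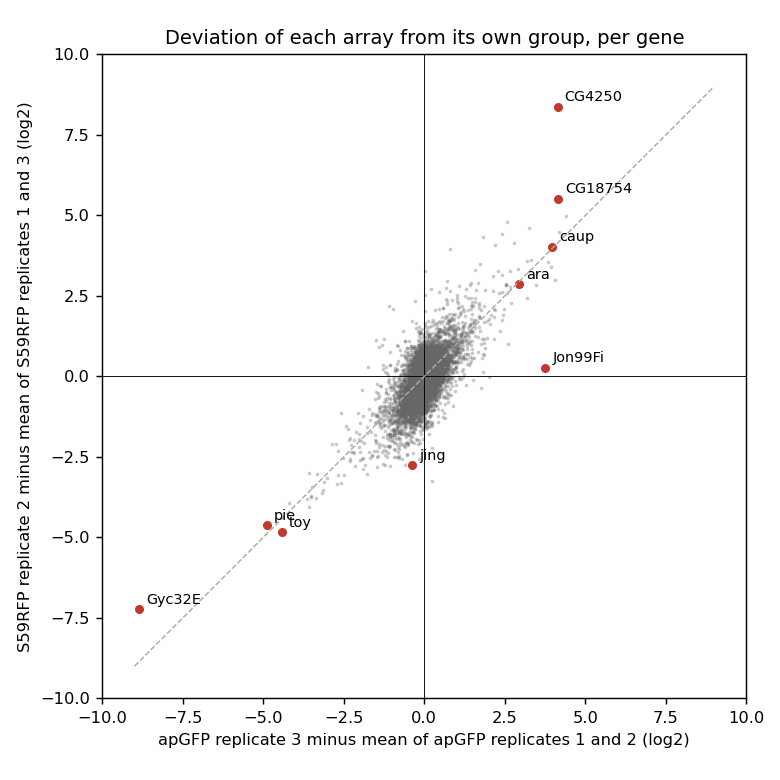
Deviation of apGFP replicate 3 (x axis, log2) and of S59RFP replicate 2 (y axis, log2) from the mean of the other replicates of the same transgene, 1 point for each of 10563 genes; the dashed line marks equal deviations and 9 genes are named. Gyc32E, pie and toy lie far below 0 on both axes, and caup, ara, CG18754 and CG4250 far above. Jon99Fi and jing depart mainly on 1 array.

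A gene was counted as higher or lower on the pair where the mean of the pair differed from the mean of the other 4 arrays by at least 1 (log2) and both arrays lay outside the range of the 4. This held for 336 probe sets that were higher (2.05%) and 414 that were lower (2.53%). The balance of directions depended on the scaling, since with quantile normalization on top higher ones outnumbered lower ones. With 1 probe set for each of 10563 genes, 277 genes were higher (2.62%) and 325 were lower (3.08%). Without a minimum size, both arrays lay above the 4 for 2003 genes (19.0%) and below them for 2391 (22.6%), and the median difference over all genes was 0.01. Since the pair was chosen on these values, nothing is read from these shares. A difference of at least 2 was found for 50 higher and 49 lower genes, and one of at least 3 for 18 and 17. Of the counted genes, 64 had further probe sets of their own. Another probe set was counted the same way for 13 of these and the opposite way for 0, although without the minimum size 9 genes had a further probe set outside the range on the opposite side. Among the 38 further probe sets with a mean of at least 5 over the 9 arrays, 14 were counted the same way.

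The genes with the most negative differences were bright on the other 4 arrays, whose values lay close together, and dim on the pair. Gyc32E, a receptor-type guanylate cyclase gene, had log2 signals of 4.77 on apGFP replicate 3 and 6.39 on S59RFP replicate 2, against 13.68 and 13.57 on apGFP replicates 1 and 2, 13.59 and 13.64 on S59RFP replicates 1 and 3, and 8.39, 7.86 and 7.77 on the twi-actin-GFP arrays. Its difference of -8.04 was the largest of all genes, 263-fold on the linear scale of RMA, and it placed the pair below every other array, while the other 4 muscle arrays stood above every twi-actin-GFP array. The gene pie, which encodes a PHD-type zinc finger protein, had 5.25 and 5.48 on the pair, against 10.18, 10.12, 10.07 and 10.12 on the other 4 arrays and 7.83 to 7.96 on the twi-actin-GFP arrays. The Pax6 gene toy had 4.52 and 4.20 on the pair, against 9.11, 8.77, 9.08 and 8.99 on the other 4 arrays and 6.27 to 6.49 on the twi-actin-GFP arrays. All 3 genes showed the same order, with the pair lowest, the twi-actin-GFP arrays between and the other 4 arrays highest. Both further probe sets of toy were lower on the pair as well, by -4.29 and -2.39.

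Other large negative differences placed the pair differently against the twi-actin-GFP arrays. Hrb87F, which encodes an hnRNP-type RNA-binding protein, had 5.89 and 6.10 on the pair, against 10.04 to 10.11 on the other 4 arrays and 10.85 to 10.96 on the twi-actin-GFP arrays. The cytokine gene Gbp2 had 4.88 and 4.68 on the pair, against 8.24 to 8.56 on the other 4 arrays and 9.49 to 9.65 on the twi-actin-GFP arrays. For these genes 7 of the 9 arrays were high and the pair alone was low. By contrast ymp had 4.18 and 4.13 on the pair, against 7.67 to 8.00 on the other 4 arrays and 3.66 to 4.12 on the twi-actin-GFP arrays. The pair and the twi-actin-GFP arrays were both low there, and so they were for Ktch, santa-maria, which encodes a scavenger receptor for carotenoid uptake, CG7264 and CG11400, with differences of -3.61 to -3.19. CG5039, CG31819, CG1894, CG16926 and Cubn2 completed the 15 most negative differences, at -3.82 to -3.30. Not every probe set followed: a further probe set of ymp differed by -0.74, and those of CG1894 and Cubn2 by -0.03 and 0.13 at signals below 4 on every array. The 17 genes that were lower by at least 3 had a range of under 1 among the other 4 arrays in 17 of 17 cases, with a median SD of 0.15 (n = 4).

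The genes that were higher on the pair were less uniform on the other 4 arrays. CG4250, which was not assigned a role here, had 13.66 on apGFP replicate 3 and 13.16 on S59RFP replicate 2, against 7.39 and 11.66 on apGFP replicates 1 and 2, 4.83 and 4.74 on S59RFP replicates 1 and 3, and 7.33, 7.17 and 6.95 on the twi-actin-GFP arrays. CG18754 had 10.34 and 9.68 on the pair, against 4.62, 7.73, 4.06 and 4.25 on the other 4 arrays, and CG11854 had 9.04 and 8.28, against 3.15, 6.16, 3.37 and 3.21. In all 3 genes apGFP replicate 2 lay between the pair and the remaining 3 arrays. It was the highest of the 4 for 14 of the 18 genes that were higher by at least 3, and the nearest of the 4 to the pair for 136 of the 277 higher genes, against 66 for apGFP replicate 1, 31 for S59RFP replicate 1 and 44 for S59RFP replicate 3. The range of the 4 arrays was under 1 for 7 of those 18 genes, with a median SD of 0.55 (n = 4).

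CG40160 was high in the reference as well, with 9.17 and 8.95 on the pair, against 4.37, 5.60, 4.53 and 4.39 on the other 4 arrays and 9.88 to 9.97 on the twi-actin-GFP arrays. The retinol dehydrogenase gene rdhB had 7.74 and 8.76 on the pair, against 4.11 to 4.66 on the other 4 arrays and 3.74 to 4.24 on the twi-actin-GFP arrays. Osi16, a member of the Osiris family of insect-specific membrane proteins, had 8.07 and 7.50, against 3.93 to 4.54 and 3.74 to 3.98. These 2 genes were low on the other 7 arrays and high on the pair alone. ppk24, which encodes a channel subunit of the DEG/ENaC family, differed by 3.52 and was likewise high on the pair alone. CG12971, CG8888, CG31810, CG4998, CG34284, CG15128 and CG12560 completed, with caup, the 15 most positive differences, at 3.15 to 3.68. The gene tau, which encodes a microtubule-associated protein, had 7.38 and 7.63 on the pair, against 4.18 to 4.76 on the other 4 arrays and 5.25 to 5.80 on the twi-actin-GFP arrays.

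**Figure D2:**
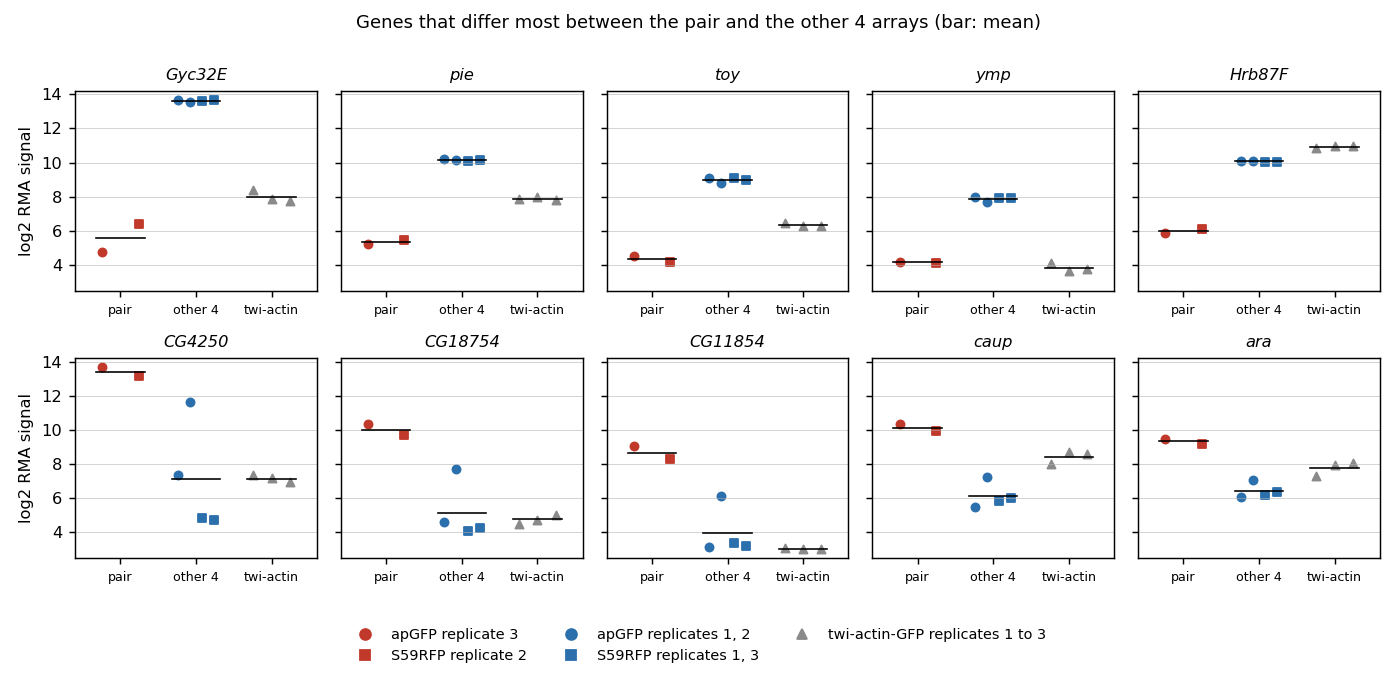
Log2 RMA signal of 5 genes that were lower (upper panels) and 5 that were higher (lower panels) on the pair, 1 point per array and a bar at each mean, with the pair at the left, the other 4 muscle reporter arrays in the middle and the twi-actin-GFP arrays at the right of each panel. The other 4 arrays cluster tightly for the lower genes, whereas apGFP replicate 2 lies between for CG4250, CG18754, CG11854 and caup.

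Several muscle identity genes were higher on the pair. The Iroquois homeobox gene caup had 10.32 and 9.95 on the pair, against 5.49, 7.25, 5.86 and 5.99 on the other 4 arrays and 7.98, 8.71 and 8.59 on the twi-actin-GFP arrays. Its paralogue and neighbour ara had 9.50 and 9.16 on the pair, against 6.06 to 7.07 on the other 4 arrays and 7.28 to 8.09 on the twi-actin-GFP arrays. Both are known to act in the lateral transverse muscles, the muscles in which ap is expressed. The homeobox gene lms, also known from lateral muscles, had 8.53 and 8.28 on the pair, against 5.69 to 6.45 on the other 4 arrays and 6.19 to 6.94 on the twi-actin-GFP arrays. The LIM-homeobox gene ap itself had 9.76 and 9.16 on the pair, against 8.45 to 8.70 on the other 4 arrays and 7.01 to 7.18 on the twi-actin-GFP arrays. It was thus above the other 4 arrays on S59RFP replicate 2 too, an array sorted through the slouch enhancer. The T-box gene mid differed by 0.58. In the other direction, nau, the fly MyoD gene, had 6.46 and 7.01 on the pair, against 7.54 to 8.33 on the other 4 arrays and 6.72 to 8.05 on the twi-actin-GFP arrays, and slou had 10.40 and 9.97, against 10.44 to 10.77 and 7.39 to 8.33. Of 20 measured identity factors, 6 lay above the 4 arrays on both of the pair, 4 below and 10 overlapped. That was 30% above and 20% below, against 19.0% and 22.6% of all genes. The list as a whole had a median difference of 0.06 and no common direction.

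Genes of the contractile apparatus were mostly higher on the pair. Of 26 measured sarcomere genes, 14 lay above the other 4 arrays on both of the pair and 2 lay below (53.8% and 7.69%, against 19.0% and 22.6% of all genes), with a median difference of 0.438. The titin-related gene bt (projectin) had 11.56 and 11.90 on the pair, against 10.10, 9.86, 9.57 and 9.60 on the other 4 arrays and 10.78 to 11.08 on the twi-actin-GFP arrays. The paramyosin gene Prm had 8.90 and 10.21, against 8.50, 7.13, 7.33 and 7.47 on the other 4 arrays and 8.91 to 9.64 on the twi-actin-GFP arrays, and its further probe set differed by 2.58. Both genes were below the reference on the other 4 arrays. On the pair, bt was above every twi-actin-GFP array, whereas Prm was so on S59RFP replicate 2 only and lay just under the lowest of them on apGFP replicate 3. Zasp66, which encodes a Z-disc protein, differed by 1.51, sals, which acts on the growth of actin thin filaments, by 1.32, and flr, an actin-disassembly factor, by 1.02. A further probe set of Zasp66 differed by 0.92 and a dim one by 0.03. The members that lay below were the actin gene Act87E, at -0.64, and the titin-like gene sls, at -0.44. Mlp60A and Mf, 2 muscle structural genes, overlapped between the groups, since apGFP replicate 1 had 9.98 and 7.54, against 9.97 and 6.04 on apGFP replicate 3.

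Genes of the fusion-competent myoblasts lay lower on the pair. The 7 measured genes of 9 on the list were all below the other 4 arrays on both of the pair, against 22.6% of all genes, with a median difference of -0.405, and 1 of them, sns, differed by at least 1. The receptor gene sns had 10.25 and 9.37 on the pair, against 11.21 to 11.40 on the other 4 arrays and 7.21 to 8.17 on the twi-actin-GFP arrays. Its paralogue hbs had 10.13 and 9.43, against 10.60 to 11.08 and 8.40 to 8.51. The list stayed well above the reference on the pair: its summed linear signal was 15550 to 19910 on the pair, against 23450 to 25640 on the other 4 arrays and 3691 to 5860 on the twi-actin-GFP arrays. The fusion genes blow, Crk and lmd differed by -0.51, -0.41 and -0.29. Genes of founder cells and the fusion machinery had no common direction. Their list shares a gene that lay below with the list of fusion-competent myoblasts. In it, 4 of 12 measured genes lay above and 6 below (33.3% and 50%, against 19.0% and 22.6% of all genes). Among them kirre, the founder receptor that pairs with the sns protein, had 10.08 and 10.22 on the pair, against 9.44 to 9.66 on the other 4 arrays, and siz, an Arf exchange factor of fusion, had 10.90 and 10.70, against 11.30 to 11.36.

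**Figure D3:**
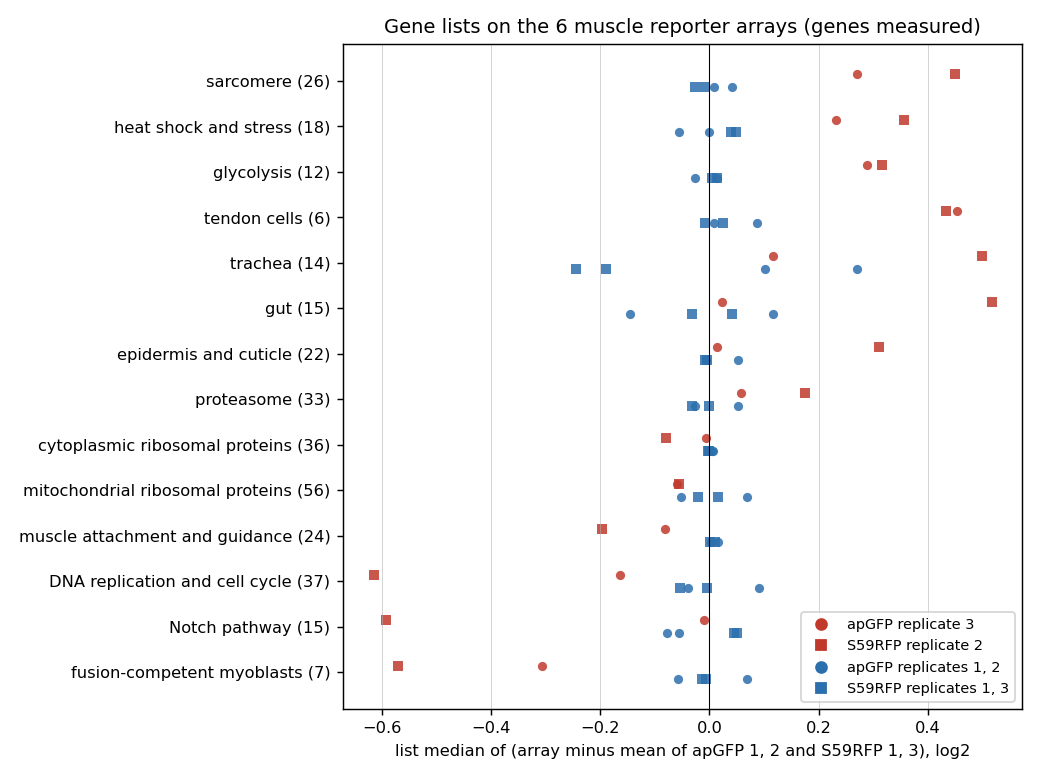
Median over each gene list of the log2 difference of an array from the mean of apGFP replicates 1 and 2 and S59RFP replicates 1 and 3 (x axis), for the pair and for each of these 4 arrays, with the number of measured genes in brackets. Sarcomere, heat shock and glycolysis lists lie at 0.231 to 0.45 on the pair, and the fusion-competent myoblast list at -0.306 and -0.571, while the trachea list also spreads among the 4 arrays.

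Cell cycle genes were lower on the pair, more so on S59RFP replicate 2. Of 37 measured genes of DNA replication and the cell cycle, 20 lay below the other 4 arrays on both of the pair and 3 above (54.1% and 8.11%, against 22.6% and 19.0% of all genes). The list median was -0.164 on apGFP replicate 3 and -0.615 on S59RFP replicate 2, against -0.0545 to 0.0901 on the other 4 arrays. The securin gene pim had 5.50 and 5.58 on the pair, against 6.57 to 7.01 on the other 4 arrays and 6.41 to 6.92 on the twi-actin-GFP arrays. The midzone protein gene feo had 7.99 and 7.37, against 8.64 to 9.10 and 8.21 to 8.51. The largest difference, -1.39, belonged to fzy (Cdc20), whose 2 dim further probe sets differed by 0.29 and 0.45. Mitotic aurB and the flap endonuclease gene Fen1 differed by -1.11 and -1.06. Orc1, a subunit of the replication origin complex, went the other way, with 7.98 and 8.79 on the pair, against 6.96 to 7.15 on the other 4 arrays and 7.95 to 8.50 on the twi-actin-GFP arrays.

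Notch pathway genes differed in both directions. Psn, the catalytic subunit of the gamma-secretase that cleaves Notch, had 7.60 and 7.22 on the pair, against 9.56, 9.60, 9.56 and 9.55 on the other 4 arrays and 9.07 to 9.25 on the twi-actin-GFP arrays. The co-repressor gene Hairless (H) had 8.19 and 7.07, against 9.07 to 9.20 and 7.71 to 7.97. The Notch target E(spl)m6-BFM was higher, with 9.65 and 9.03 against 7.73 to 8.14 on the other 4 arrays, and its relative E(spl)m4-BFM was lower, with 7.21 and 7.41 against 8.22 to 8.42. Of 15 measured genes 4 lay above and 6 below (26.7% and 40.0%, against 19.0% and 22.6% of all genes). The list median was -0.00964 on apGFP replicate 3 and -0.592 on S59RFP replicate 2. Outside these 15, the Notch ligand gene Delta differed by 1.06. Its further probe set had 10.08 and 10.67 on the pair, against 8.99 to 9.05 on the other 4 arrays and 8.00 to 8.37 on the twi-actin-GFP arrays.

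The summed signal of stress genes was higher on the pair, close to the level of the twi-actin-GFP arrays. Of 18 measured genes of heat shock and stress, 9 lay above the other 4 arrays on both of the pair and 2 below (50% and 11.1%, against 19.0% and 22.6% of all genes), with a median difference of 0.381. Their summed linear signal was 77720 to 83560 on the pair, against 56980 to 63850 on the other 4 arrays and 72240 to 80120 on the twi-actin-GFP arrays. Hsp68, an inducible chaperone of the Hsp70 family, had 12.67 and 12.98 on the pair, against 11.49, 10.95, 11.56 and 11.53 on the other 4 arrays and 11.44 to 11.66 on the twi-actin-GFP arrays. The co-chaperone gene stv had 10.72 and 11.32, against 9.27 to 9.93 and 9.15 to 9.52. These 2 genes exceeded every other array, whereas the small heat shock gene Hsp26 had 13.41 and 13.76 on the pair, against 12.26 to 12.73 on the other 4 arrays and 13.36 to 13.80 on the twi-actin-GFP arrays. Constitutive or regulatory members were not all higher, and Keap1, a sensor of oxidative stress, differed by -0.73.

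Larger stress gene differences stood outside that list. The small heat shock gene l(2)efl had 12.26 and 12.96 on the pair, against 10.06, 9.64, 9.79 and 9.82 on the other 4 arrays and 11.34 to 12.43 on the twi-actin-GFP arrays, and its 2 further probe sets differed by 3.08 and 2.21. The heat-inducible alpha-gamma element transcript lncRNA:alphagamma-element:CR32865 had 12.74 and 13.14, against 10.19 to 10.31 and 12.09 to 12.45. The metallothionein gene MtnA, which responds to metals, had 11.16 and 12.24, against 9.12, 9.55, 7.87 and 7.97 on the other 4 arrays and 11.98 to 12.06 on the twi-actin-GFP arrays. For these 3 genes the other 4 muscle arrays were below every twi-actin-GFP array. The pair lay within or above the range of the reference, except that MtnA on apGFP replicate 3 lay below it. The 3 genes were named after their values were seen. The part of stress gene expression in the other differences was not tested.

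Most glycolytic genes lay higher on the pair, all by less than 1. Of 12 measured genes, 7 lay above the other 4 arrays and 2 below (58.3% and 16.7%, against 19.0% and 22.6% of all genes), and the list median was 0.289 on apGFP replicate 3 and 0.316 on S59RFP replicate 2, against -0.0267 to 0.0147 on the other 4 arrays. Pgi, glucose-6-phosphate isomerase, had 11.15 and 11.31 on the pair, against 10.37 to 10.42 on the other 4 arrays and 9.65 to 9.97 on the twi-actin-GFP arrays. Triose phosphate isomerase (Tpi) differed by 0.77, glycogen phosphorylase (Glyp) by 0.69 and, outside the list, the glycogen branching enzyme (AGBE) by 1.51. UGP, which makes the sugar donor for glycogen synthesis, was opposite, with 4.44 and 4.82 on the pair against 6.39 to 6.70 on the other 4 arrays and 6.06 to 6.49 on the twi-actin-GFP arrays.

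**Figure D4:**
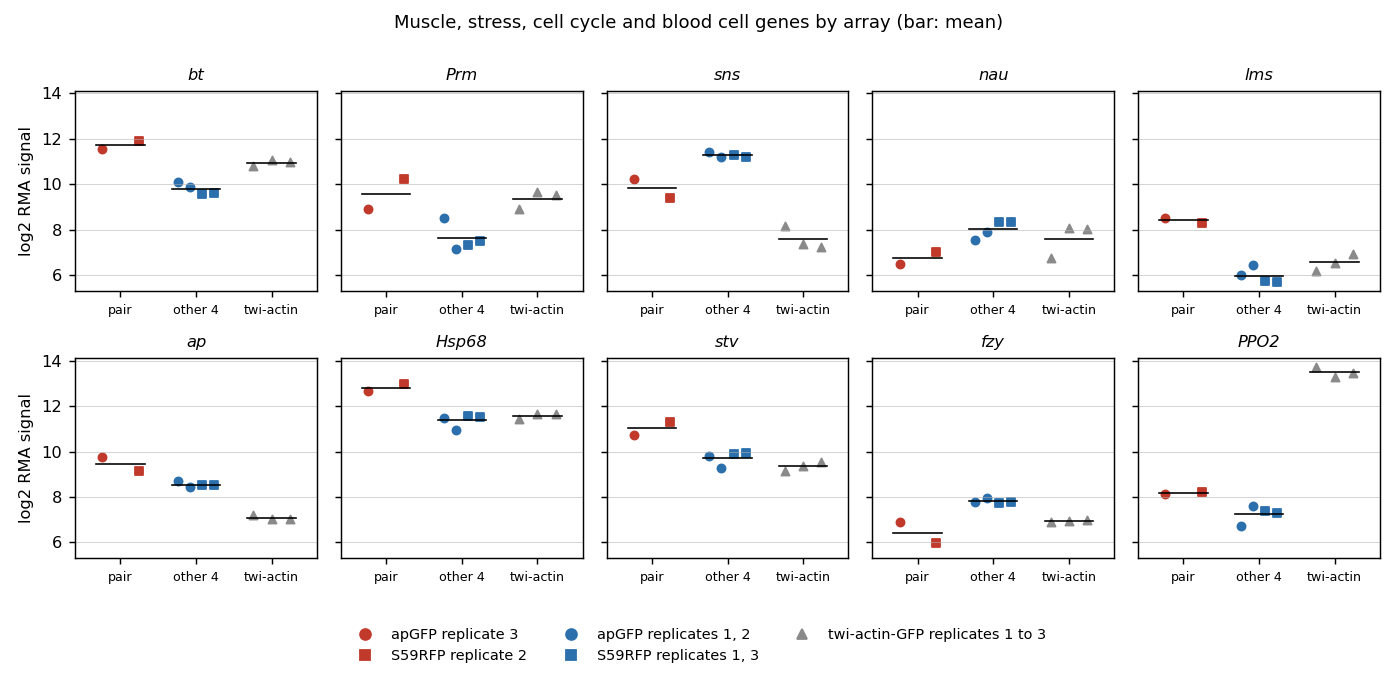
Log2 RMA signal by array for 10 genes: bt and Prm (sarcomere), sns (fusion-competent myoblasts), nau, lms and ap (muscle identity), Hsp68 and stv (stress), fzy (cell cycle) and PPO2 (crystal cells), with the pair at the left, the other 4 muscle reporter arrays in the middle, the twi-actin-GFP arrays at the right and a bar at each mean. PPO2 stands at 8.14 and 8.21 on the pair and 6.72 to 7.61 on the other 4 muscle arrays, against 13.27 to 13.72 on the twi-actin-GFP arrays.

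Markers of other cell types differed in part, and their part in the other differences was not tested. Over all genes, 19.0% lay above the other 4 arrays and 22.6% below. In the tendon cell list, 3 of 6 genes lay above the other 4 arrays and 1 below (50% and 16.7%). Among them sr, the tendon fate factor, had 7.13 and 7.95 on the pair, against 5.56 to 6.21 on the other 4 arrays and 6.92 to 8.29 on the twi-actin-GFP arrays. The tendon gene slow had 7.73 and 8.28, against 6.07 to 6.59 and 8.07 to 8.55. The other gene above was Alk, with 3.80 and 4.01 on the pair, against 2.98 to 3.10 on the other 4 arrays. Its signals were below the median of every array. The remaining defining gene, tx, had 10.52 and 10.25 on the pair, against 10.13 to 10.49 on the other 4 arrays, so that the groups overlapped, and shot differed by 0.03 and Tsp by -0.28. The summed signal of the list was 3091 to 3357 on the pair, against 2706 to 3048 on the other 4 arrays and 2948 to 3264 on the twi-actin-GFP arrays. RMA gives no zeros and no detection calls, so that no defining marker can be listed at 0. In the gut list, 5 of 15 genes lay above and 2 below (33.3% and 13.3%). Its defining members disagreed. The endodermal factor gene GATAe had 5.68 and 5.84 on the pair, against 4.19 to 5.20 on the other 4 arrays and 8.33 to 9.13 on the twi-actin-GFP arrays, and the midgut gene mex1 had 7.70 and 8.57, against 5.91 to 6.49 and 10.91 to 11.77. The defining GATA factor gene grn was lower, with 5.81 and 5.54 against 6.13 to 6.64 on the other 4 arrays, and so was hkb, with 5.47 and 5.46 against 6.10 to 6.57. The remaining defining gene, peb, overlapped between the groups. The summed signal of gut genes was 1510 to 1757 on the pair, against 1061 to 1447 on the other 4 arrays and 7730 to 8872 on the twi-actin-GFP arrays. The homeobox gene dve, which also acts in the gut, differed by 2.13 and reached 8.32 and 8.45 on the pair. A dim further probe set of dve differed by 0.26.

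The trachea list had a median difference of 0.535, yet its summed signal overlapped between the pair and the other 4 arrays. The list median was 0.116 on apGFP replicate 3 and 0.499 on S59RFP replicate 2, against -0.244 to 0.271 on the other 4 arrays. Only S59RFP replicate 2 thus lay above that range. Of 14 genes, 4 lay above and 2 below (28.6% and 14.3%, against 19.0% and 22.6% of all genes). Its defining gene Gasp, which encodes a chitin-binding protein, had 8.70 and 9.16 on the pair, against 6.71 to 7.73 on the other 4 arrays and 11.75 to 11.98 on the twi-actin-GFP arrays. The summed signal was 3337 to 5506 on the pair, against 2308 to 5428 on the other 4 arrays and 12830 to 14230 on the twi-actin-GFP arrays, and 8 genes overlapped. Osi14 had 8.07 and 9.49 on the pair and 9.34 on apGFP replicate 1, against 6.78 to 6.96 on the remaining 3 arrays. Among 22 genes of epidermis and cuticle, 7 lay above and 4 below (31.8% and 18.2%). Their summed signal was 1828 to 2294 on the pair, 1764 to 1915 on the other 4 arrays and 4682 to 4942 on the twi-actin-GFP arrays. The cuticle protein gene Cpr62Bb had 6.83 and 7.14 on the pair, against 4.18 to 4.43 on the other 4 arrays and 4.03 to 4.35 on the twi-actin-GFP arrays, high on the pair alone, and the cuticle gene TwdlW differed by 2.28. The salivary gland list held opposite members, with nur at 1.83 and the Hox gene Scr at -1.75, and its summed signal was 976.5 to 2427 on the pair, against 730.5 to 902.9 on the other 4 arrays and 3064 to 5077 on the twi-actin-GFP arrays.

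The summed signals of blood cell and fat body genes were far below the twi-actin-GFP arrays on the pair and on the other 4 arrays alike. Bright genes carried these sums, and single members such as drpr, gcm and Desat1 had levels near the reference on most of the muscle arrays. The crystal cell gene PPO2 had 8.14 and 8.21 on the pair, against 6.72 to 7.61 on the other 4 arrays and 13.27 to 13.72 on the twi-actin-GFP arrays. The hemocyte list summed to 6062 to 6448 on the pair, against 5508 to 7353 on the other 4 arrays. On the twi-actin-GFP arrays the sum was 27140 to 43480. Of its 18 genes, 3 lay above, 3 below and 12 overlapped. That was 16.7% above and 16.7% below, against 19.0% and 22.6% of all genes. The hemocyte scavenger receptor gene Sr-CI differed by -1.17. Lists of neurons, visceral mesoderm and germ cells had medians of 0.0141, 0.00135 and -0.084. No member of these was counted. Over all genes 2.62% were counted as higher and 3.08% as lower, so that nothing is read from this in lists so short. Without the minimum size, 5 of 17 neuronal genes lay above and 3 below (29.4% and 17.6%). In visceral mesoderm 2 of 8 lay above and 1 below (25.0% and 12.5%), and in germ cells 0 of 9 and 2 (0% and 22.2%). In the fat body list, 2 of 9 genes lay above and 2 below (22.2% and 22.2%). Its summed signal was 2914 to 3246 on the pair, against 2729 to 3753 on the other 4 arrays. On the twi-actin-GFP arrays it was 20770 to 26760.

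The lists of glia, of neuroblasts with sensory precursors and of cardiac mesoderm each held members counted as differing. Of 9 glial genes, 2 lay above and 4 below (22.2% and 44.4%, against 19.0% and 22.6% of all genes). Their median difference was -0.171, and nrv2, a subunit gene of the sodium pump, differed by -1.11. The summed signal of glial genes was 2625 to 2732 on the pair, against 2584 to 3012 on the other 4 arrays and 4888 to 5382 on the twi-actin-GFP arrays. Of 14 genes of neuroblasts and sensory precursors, 2 lay above and 5 below (14.3% and 35.7%), with a median difference of -0.146. Among them mira, an adaptor for asymmetric division, had 7.24 and 7.65 on the pair, against 8.39 to 8.70 on the other 4 arrays and 7.28 to 7.60 on the twi-actin-GFP arrays. Their summed signal was 1868 to 2066 on the pair, against 2226 to 2595 on the other 4 arrays and 1851 to 2187 on the twi-actin-GFP arrays. Of 16 cardiac genes, 6 lay above and 2 below (37.5% and 12.5%), with a median difference of 0.133. The collagen gene Mp differed by 1.25 and the GATA factor gene pnr by -1.13. A dim further probe set of Mp differed by 0.08. The cardiac sum was 2809 to 3392 on the pair, against 2123 to 2317 on the other 4 arrays and 6217 to 7077 on the twi-actin-GFP arrays.

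Housekeeping lists had small median differences. The median difference was -0.0394 over 36 cytoplasmic ribosomal protein genes, -0.0569 over 56 mitochondrial ribosomal protein genes, -0.0228 over 36 genes of the respiratory chain and ATP synthase and 0.155 over 33 proteasome genes. In the mitochondrial ribosomal list 20 genes lay below the other 4 arrays and 7 above (35.7% and 12.5%, against 22.6% and 19.0% of all genes). In the proteasome list 12 lay above and 4 below (36.4% and 12.1%). The translation repressor gene eIF4EHP differed by -1.31, carried mostly by S59RFP replicate 2, at 5.95, against 7.69 on apGFP replicate 3 and 8.02 to 8.25 on the other 4 arrays. Its further probe set did not follow, with 5.88 and 5.44 on the pair, against 5.31 to 5.54 on the other 4 arrays. Ecdysone response genes split, with br at 1.61 and ftz-f1 at 1.24, both transcription factors of the hormone cascade, and shd, which makes the active hormone, at -1.39. Further probe sets of br differed by 2.0, 1.17, -0.01 and -0.25, and a dim one of shd by -0.07. Odorant and gustatory receptor genes, most of them dim in these cells, gave a measure of the floor of the scale: over 104 genes the median deviation was 0.0272 on apGFP replicate 3 and 0.173 on S59RFP replicate 2, against -0.0526 to 0.0444 on the other 4 arrays. The dimmer side of the comparison lay below the lowest array median for 55 of the 277 higher genes and 44 of the 325 lower genes, where RMA compresses differences.

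The pair also differed within itself. Counted genes could be carried mostly by 1 array, as with Jon99Fi, jing and bol, which differed by 2.02, -1.57 and -1.37. Jon99Fi, a gene of the Jonah family of digestive serine proteases, had 6.64 on apGFP replicate 3 and 3.05 on S59RFP replicate 2, against 2.74 to 2.90 on the other 4 arrays and 2.66 to 2.84 on the twi-actin-GFP arrays, and so was high on 1 array of 9. The reverse step was seen on S59RFP replicate 2. The zinc finger gene jing had 8.51 on apGFP replicate 3 and 6.24 on S59RFP replicate 2, against 8.81 to 9.06 on the other 4 arrays and 6.76 to 7.01 on the twi-actin-GFP arrays. The RNA-binding protein gene bol had 9.21 and 6.89, against 9.38 to 9.48 and 6.84 to 6.98. Further probe sets of both genes went the other way: that of bol had 9.55 and 9.53 on the pair, against 8.45 to 8.63 on the other 4 arrays, and a dim one of jing differed by 0.34. Likewise lncRNA:CR42862 had 7.51 and 4.14, the MCM-family gene rec 7.15 and 4.90, and the HMG-box repressor gene cic 7.96 and 5.94, each with apGFP replicate 3 inside or near the other 4 arrays. Higher on S59RFP replicate 2 than on apGFP replicate 3, relative to their own transgenes, were CG4250, CG9411, Osi6, CG14292, CG4115 and CG30413. For 4 of these, CG9411, Osi6, CG4115 and CG30413, at least 1 of the other 4 arrays overlapped the pair, as with Osi6 at 9.28 and 11.05 on the pair and 11.39 on apGFP replicate 1.

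Some genes that were higher on the pair lay beside each other. In the gene order of the RefSeq table, which was used only for which genes are neighbours, 45 of 276 placed higher genes (16.3%) had a neighbouring measured gene that was also higher, while 542 of all 10487 placed genes (5.17%) had one. For lower genes the shares were 27 of 325 (8.31%) and 636 of 10487 (6.06%). Besides ara and caup, CG4250 stood between CG42565 and CG30269, which differed by 2.14 and 1.90. A dim further probe set of CG42565 overlapped, with 3.13 and 3.69 on the pair, against 3.31 to 3.61 on the other 4 arrays. Hsp26 neighboured CG4461, at 2.14, and Cpr62Bb neighboured Cpr62Bc, at 1.51. Among lower genes, CG5039 stood beside CG4743 and Idh3g, a subunit gene of mitochondrial isocitrate dehydrogenase, at -1.11 and -2.22, and Gbp2 beside CG11400.

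The pair belongs to both muscle groups of the comparisons that the study made, so the calls were computed with and without it. With all 9 arrays, limma called 3593 probe sets (21.9%) in apGFP against twi-actin-GFP at a Benjamini-Hochberg adjusted p below 0.05, 1601 higher and 1992 lower. Without the pair it called 5968 (36.4%), 3272 higher and 2696 lower, of which 3544 were shared. In S59RFP against twi-actin-GFP the counts were 3946 (24.1%) and, without the pair, 6155 (37.6%), with 3820 shared. Both comparisons use the same twi-actin-GFP arrays. The median residual SD over probe sets was 0.169 with all arrays and 0.115 without the pair, and leaving out arrays that were chosen because they stand apart lowers it by construction. Between apGFP and S59RFP, where each side holds 1 array of the pair, limma called 0 probe sets (0%) with all arrays and 0 (0%) without the pair. At an unadjusted p below 0.05 there were 430 and 716 probe sets, and 11 passed the study's own rule with all arrays, which asks for a 1.7-fold change beside that unadjusted p.

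The genes that differed on the pair were chosen because 1 array of each muscle group departs, so leaving the pair out lowers their error by construction. Their limma values are therefore given as a description, without p-values. The median SE of the change in apGFP against twi-actin-GFP was 0.472 with all arrays and 0.116 without the pair for the 325 lower genes, and 0.481 and 0.161 for the 277 higher genes. Over all 10563 genes it was 0.144 and 0.105. For Gyc32E the log2 change in apGFP against twi-actin-GFP was 2.67 ± 2.61 (SE) with all arrays and 5.62 ± 0.17 without the pair. For pie it was 0.64 ± 1.54 and 2.27 ± 0.08, and for toy 1.11 ± 1.50 and 2.59 ± 0.12. For caup it was -0.74 ± 1.34 and -2.06 ± 0.45, and for bt -0.43 ± 0.65 and -0.96 ± 0.11. The genes whose enhancers drove the reporters were called with all arrays. The ap signal was higher in apGFP than in twi-actin-GFP by 1.89 ± 0.32 (limma adjusted p = 0.00299), and slou by 2.57 ± 0.29 (limma adjusted p = 0.000308). In S59RFP against twi-actin-GFP the changes with all arrays were 1.65 ± 0.32 for ap and 2.52 ± 0.29 for slou. Between apGFP and S59RFP they were 0.24 ± 0.32 and 0.05 ± 0.29, and neither was called. Without the pair the changes in apGFP against twi-actin-GFP were 1.50 ± 0.10 for ap and 2.64 ± 0.26 for slou. The changes without the pair are given without p-values, since the pair departed for both genes too.

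**Figure D5:**
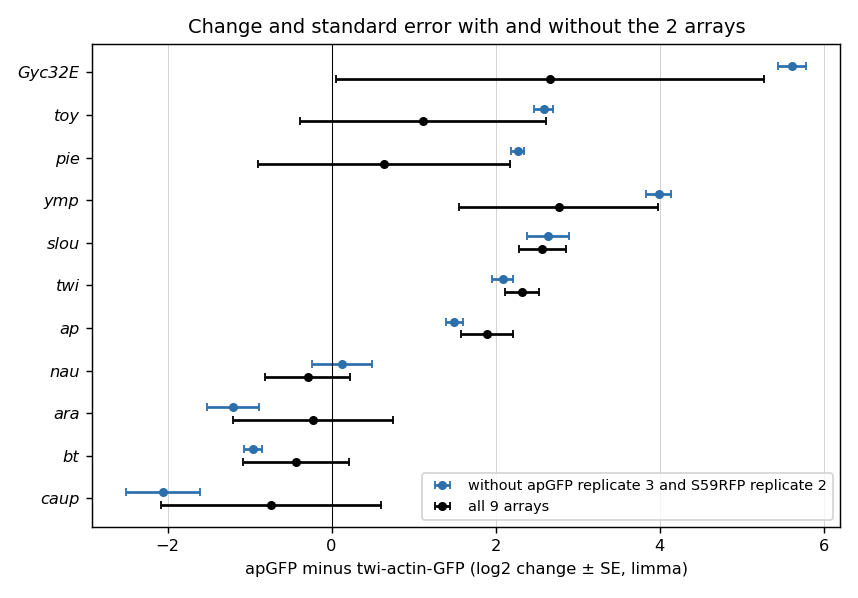
Log2 change of apGFP against twi-actin-GFP with its standard error (x axis, limma) for 11 genes, without the pair (upper point of each gene) and with all 9 arrays (lower point). The bars of Gyc32E, toy and pie span 2.61, 1.50 and 1.54 on each side with all arrays, against 0.17, 0.12 and 0.08 without the pair. Those of ap, slou and twi span 0.32, 0.29 and 0.21, against 0.10, 0.26 and 0.13.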

How the data were processed

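The deposited table holds 1 log2 value per array and probe set (Affymetrix Drosophila Genome 2.0), which the authors made with RMA in Partek, per the submitters' processing notes. Versions and settings are not given in the sources used here, and RMA gives no detection call. The values were used as deposited, without a filter. Of 16377 probe sets, 11899 were paired with 1 gene by the platform annotation, 353 with several and 4125 were not listed. Each of 10563 genes was read from its brightest probe set on average, and 912 genes had several.

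The pair minus the other 4 arrays was computed as a difference of means, with 1 array of each transgene against 2 of each. The study's comparisons were fitted in limma 3.58.1 under R 4.3.3 as 3 group means with moderated variances, with Benjamini-Hochberg adjustment over all probe sets, on all 9 arrays and without the pair. The array number limits the precision. Alternatives were leaving out each array, array weights, quantile normalization on top, a mean of at least 5 over the 9 arrays, the study's threshold of 1.7-fold, and the replicate number as a block.

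The replicate numbers count sorts within a transgene and were not used as pairs: deviations of equal-numbered apGFP and S59RFP arrays correlated at 0.491, -0.563 and -0.618.

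Members and gene lists were chosen with earlier results of these data known. Named genes are the 15 largest differences each way with both arrays outside the range of the other 4, up to 4 members of each list with the largest differences, the 6 largest differences each way between the deviations of the pair, and ap, slou and twi. Chosen after their values were seen were lmd, mid, flr, Act87E, Mlp60A, Mf, aurB, Fen1, Keap1, Delta, tx, shot, grn, peb, drpr, l(2)efl, CG4461, lncRNA:alphagamma-element:CR32865, MtnA, tau, AGBE, Cpr62Bc, Idh3g, CG4743, CG42565 and CG30269. The summed linear signal of a list is the sum of 2 to the power of its values. Promoter motifs, chromosome arms and array control probe sets were not analysed here.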

Additional observations from a re-analysis of the deposited data

How the results depend on the processing

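With 3 arrays per transgene and a pair chosen on its values, sizes and directions can be described, and the pair cannot be tested. Of the 1178 recomputed differences of the 132 genes named here, 970 moved by less than the spread of the other 4 arrays. Signs could turn when 1 array of the pair was left out. Osi6, for example, had a difference of 0.54 for the pair and -1.09 for apGFP replicate 3 alone. Of 342 recomputed list medians, 215 stayed within that spread. Here too signs could turn, as in the Notch pathway list, at -0.401 for the pair and 0.132 for apGFP replicate 3 alone. The counts of 336 higher and 414 lower probe sets became 528 and 764 with a threshold of 1.7-fold, and 398 and 359 with quantile normalization on top, which turned the balance. Leaving out each of the other 4 arrays gave 331 to 359 higher and 398 to 453 lower. With 1 array of the pair left out, the remaining one was set against the 2 other arrays of its own transgene only, so that 2 choices changed at once. S59RFP replicate 2 then gave 520 higher and 933 lower, and apGFP replicate 3 gave 307 and 261. The correlation of 0.668 between the deviations, recomputed in ways chosen after seeing the data, was 0.675 after quantile normalization on top, 0.744 for probe sets with a mean of at least 5, and 0.618 to 0.671 when each of the other 4 arrays was left out.

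In apGFP against twi-actin-GFP, the 3593 calls became 5968 without the pair, 6028 with array weights and 2318 with the study's threshold of 1.7-fold and an unadjusted p below 0.05, and 2487 to 5462 when single arrays were left out, with 5462 reached without S59RFP replicate 2. In S59RFP against twi-actin-GFP, the 3946 calls became 6155 without the pair, 9228 with array weights and 2247 with the study's threshold, and 2453 to 4968 when single arrays were left out, with 2593 and 2453 reached without twi-actin-GFP replicates 2 and 3. Between apGFP and S59RFP the count of 0 became 11 with the study's threshold and stayed 0 in the other settings that were run. With the replicate number as a block, a pairing that the labels do not give, the counts were 3151, 3320 and 0. Quantile normalization on top gave 2062 higher and 1846 lower calls in apGFP against twi-actin-GFP, and 2265 and 1876 in S59RFP against twi-actin-GFP, whereas lower calls outnumbered higher ones without it. Array weights and leaving out the pair both lower the residual spread by construction. Of the 540 recomputed limma values of 12 named genes, 27 gained a call and 0 lost one. Uncalled changes could turn their sign, as for nau in apGFP against twi-actin-GFP, at -0.29 with all arrays and 0.13 without the pair. A probe set near the lower end of the scale has a compressed difference, which limits the sizes given for genes that are dim on the pair.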
